A study of Homo sapiens with 24 samples.

Results

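The collagen genes are the 44 of the 60623 genes in the count table whose symbol is COL, a type number, A and a chain number. They were taken by name alone, and their RNA was followed through 24 libraries of ARPE-19 cells, an established human line that arose spontaneously from retinal pigment epithelium (RPE). The study compared lines with different levels of EMP2, a membrane protein, under normal and low oxygen. WT is the unmodified line. VC carries a control retroviral construct, OE is a line stably transduced with a retrovirus that overexpresses EMP2, and KD has EMP2 knocked down, for which the study's methods name a lentiviral short hairpin RNA. Each line was kept for weeks in normoxia and then either left there or placed at 0.5% oxygen for 4 h (hypoxia) by the sample labels, a time at which a range given in the study's methods ends. Each of the 8 groups has 3 libraries, numbered by replicate, and values for 3 libraries are given below in that order. A line limits what a difference from WT can mean. No hairpin control line is among the samples, the libraries of OE in replicate 3 carry another OE name in their descriptions than those of replicates 1 and 2, and nothing says that the libraries came from separate cultures. A p-value or standard error here therefore measures only how far libraries lie apart within groups, and part of that may be technical. The estimate of spread is shared by all 8 groups, so it is not the spread of the groups compared. Any other difference between separately derived lines cannot be told apart from EMP2.

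Collagens are extracellular proteins built from 3 chains wound into a triple helix. Fibrillar collagens form banded fibrils, type IV collagen forms the sheet-like network of basement membranes, type VI forms beaded filaments, type VIII and type X form other networks, and FACIT collagens bind to the surface of fibrils. RPE cells rest on Bruch's membrane, whose innermost layer is the basement membrane of the RPE, and they make part of it. Chains are hydroxylated on proline and lysine and folded in the endoplasmic reticulum, cut by proteinases outside the cell and cross-linked by lysyl oxidases. The prolyl and lysyl hydroxylases use molecular oxygen, and several of their genes are known targets of the hypoxia-inducible factors.

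The 6 type IV genes lie in head-to-head pairs that are read away from a shared stretch of DNA. The promoters of COL4A2 and of the partners COL4A3 and COL4A4 are shown as examples of this layout, with those of COL6A2, high in VC, and COL9A2, high in OE, which were chosen after their values were seen. RefSeq start sites of COL4A1 and COL4A2 on chromosome 13 are 127 bases apart, those of COL4A4 and COL4A3 on chromosome 2 are 419 apart, and those of COL4A6 and COL4A5 on chromosome X are 380 apart. COL4A6 has another RefSeq start, at position 108438422, which lies further from COL4A5 and was not used for this distance. RefSeq promoter windows of GRCh38.p14, each 250 bases before to 50 after a start, were found for 32 of the 44 genes (44 windows). The windows below run 5′ to 3′ on the gene's own strand, and capitals mark 4 kinds of short motif on either strand: the hypoxia response core (ACGTG or GCGTG), the CCAAT box, the GC box (GGGCGG) and the TATA box (TATAAA).
COL4A2, chr13:110307034-110307333, plus strand: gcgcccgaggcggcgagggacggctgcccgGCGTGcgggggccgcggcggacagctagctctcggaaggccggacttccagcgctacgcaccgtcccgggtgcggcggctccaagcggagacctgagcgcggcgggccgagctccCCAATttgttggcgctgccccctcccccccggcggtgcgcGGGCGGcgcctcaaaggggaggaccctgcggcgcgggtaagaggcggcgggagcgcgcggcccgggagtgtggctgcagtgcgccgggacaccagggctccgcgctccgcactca
COL4A3, chr2:227164374-227164673, plus strand: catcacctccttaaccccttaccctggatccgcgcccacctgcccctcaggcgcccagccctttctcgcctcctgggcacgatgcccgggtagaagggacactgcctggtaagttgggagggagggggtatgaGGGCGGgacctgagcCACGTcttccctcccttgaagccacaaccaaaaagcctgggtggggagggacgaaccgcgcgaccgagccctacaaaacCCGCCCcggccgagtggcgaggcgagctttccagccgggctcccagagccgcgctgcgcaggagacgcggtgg
COL4A4, chr2:227164156-227164455, minus strand: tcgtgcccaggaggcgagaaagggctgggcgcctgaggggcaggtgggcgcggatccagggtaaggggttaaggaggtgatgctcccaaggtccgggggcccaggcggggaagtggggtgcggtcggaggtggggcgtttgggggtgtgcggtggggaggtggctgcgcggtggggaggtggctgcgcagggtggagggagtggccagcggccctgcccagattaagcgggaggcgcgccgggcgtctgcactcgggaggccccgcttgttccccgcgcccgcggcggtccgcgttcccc
COL6A2, chr21:46097862-46098161, plus strand: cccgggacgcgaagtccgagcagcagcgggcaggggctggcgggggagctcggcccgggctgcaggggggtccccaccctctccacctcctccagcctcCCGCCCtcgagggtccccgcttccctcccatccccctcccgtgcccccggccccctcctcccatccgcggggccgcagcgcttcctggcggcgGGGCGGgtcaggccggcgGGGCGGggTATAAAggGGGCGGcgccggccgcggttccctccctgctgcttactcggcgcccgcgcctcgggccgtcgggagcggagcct
COL9A2, chr1:40317237-40317536, minus strand: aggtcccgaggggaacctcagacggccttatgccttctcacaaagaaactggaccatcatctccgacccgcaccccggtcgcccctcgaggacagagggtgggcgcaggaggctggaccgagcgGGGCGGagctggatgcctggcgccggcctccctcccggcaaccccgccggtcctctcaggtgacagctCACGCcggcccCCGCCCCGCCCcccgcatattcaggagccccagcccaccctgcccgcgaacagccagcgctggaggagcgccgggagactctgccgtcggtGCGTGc

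The COL4A2 window holds the starts of both genes of its pair, while the COL4A3 and COL4A4 windows overlap only at their far ends. None of the 4 motifs was in the COL4A4 window, and the COL6A2 window held 4 GC boxes and a TATA box. Over the collagen windows the hypoxia response core was in 43.2%, against 48.4% of all 35116 windows of the same table. The CCAAT box was in 31.8% against 34.6%, the GC box in 54.5% against 45.0% and the TATA box in 18.2% against 11.5%. A match is only a run of letters, and no binding was measured.

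The libraries held 10796813 to 19779450 reads counted in genes, with a median of 15992615. In 23 libraries the counted reads were 90.0 to 91.5% of the uniquely mapped reads, and in replicate 1 of OE hypoxia they were 64.9%. The counts of calls on OE hypoxia, and the values that moved most, are also given without that library, and for the genes that were not called and the other genes of the pathway this was done after seeing the data. EMP2 followed the labels, with a log2 difference from WT of 3.42 in OE and -2.16 in KD in normoxia. The oxygen labels were followed by the hypoxia-inducible gene CA9 in WT (log2 change of 2.24), VC (2.09) and KD (2.62), while in OE it differed by 0.31 and was not called (edgeR, Benjamini-Hochberg adjusted p = 0.0160). Without replicate 1 of OE hypoxia CA9 differed by 0.47 in OE and was called. VEGFA was also set as a check of the oxygen labels. EMP2, CA9 and VEGFA, all 3, were called higher in OE than in WT in normoxia. In hypoxia 1 of the 3 was called higher and 2 lower in OE than in WT. Without replicate 1 of OE hypoxia these counts were 1 and 1. Whether the higher level of CA9 in OE normoxia bears on its small change was not tested. With hypoxia 2 of the 3 genes were called higher and 1 lower in each of WT, VC and KD. In OE 1 was called higher and 0 lower, and 2 were higher without replicate 1 of OE hypoxia. Summed over the 9 RPE markers, WT normoxia held 410 to 451 CPM (counts scaled to the size of the library), VC normoxia 163 to 174 and OE hypoxia 399.9 to 965, the widest range, whose part in the results on OE hypoxia was not tested, and RPE65, the defining retinoid isomerase of the RPE, had 0 counts in VC hypoxia and in KD hypoxia. The 8 fibroblast and other mesenchymal markers summed to 482 to 662 CPM in the WT, OE and KD libraries and to 102 to 124 CPM in the VC libraries, and DPT among them was at 0 in every group. The 6 endothelial markers summed to at most 3.71 CPM and the 5 immune markers to at most 1.00 CPM in any library.

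Of the 44 genes, 39 had at least 10 counts over all libraries and could be tested. COL2A1, the fibrillar collagen of cartilage, and COL9A1, a FACIT chain that accompanies it, had 0 counts in every library, while COL5A3, COL19A1 and COL23A1 had 6, 4 and 3 counts in all. Levels were divided by the length of all exons of a gene in GENCODE 44, merged over every annotated transcript. This length was 19.3 kb for COL4A2 and 5.54 kb for COL6A1, and the order of genes depends on it. By this measure the highest level in WT normoxia was that of COL18A1 at 123 CPM per kb ± 2.80 (SD, n = 3), the multiplexin whose C-terminal fragment is endostatin. COL11A1 (109 ± 7.87) and COL5A1 (90.5 ± 5.94), which make minor fibrillar collagens that sit inside other fibrils, and COL8A1 (87.1 ± 3.58), a chain of a network found in Bruch's membrane, came next. The type IV chains COL4A1 (54.6 ± 1.84) and COL4A2 (42.0 ± 1.95) and the type VI chain COL6A1 (33.1 ± 1.03) followed, all as CPM per kb. The libraries of COL5A1 and COL8A1 overlapped, so those neighbours in the order do not differ beyond their spread. COL18A1 shares 18.5% of its exon bases with SLC19A1 on the other strand, and since the sources used here do not say that counting used strand, reads of that stretch may belong to either gene. COL1A1, a chain of the most abundant collagen of the body, was lower per kb than all of these, and its partner COL1A2 had at most 11 counts in any library, against at least 689 counts of COL1A1. COL1A2 had 3 to 11 counts in each library of replicate 3 and 0 to 7 in the others.

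The collagen genes together held 6434 CPM ± 218 (SD, n = 3) in WT normoxia, 3405 ± 177 in VC, 8641 ± 340 in OE and 4769 ± 195 in KD. In hypoxia the sums were 8235 ± 598 in WT, 4725 ± 198 in VC, 8897 ± 1648 in OE and 7297 ± 168 in KD. No libraries of the 4 lines overlapped in normoxia, with OE above WT, WT above KD and KD above VC. In hypoxia VC remained below the others, whereas the OE libraries ran from 7151 in replicate 1 to 10424 and overlapped those of WT and KD. The classes took different shares of the summed level per kb, which depend on the merged exon lengths used. Fibrillar chains held 37.9% in WT normoxia, 36.1% in OE and 36.6% in KD but 11.5% in VC. Basement membrane chains held 28.5% in OE, 16.8% in WT, 11.6% in KD and 9.32% in VC. Beaded filament chains held 48.6% in VC normoxia and 60.8% in VC hypoxia against 5.41% in WT normoxia and 1.23% in OE normoxia.

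**Figure D1:**
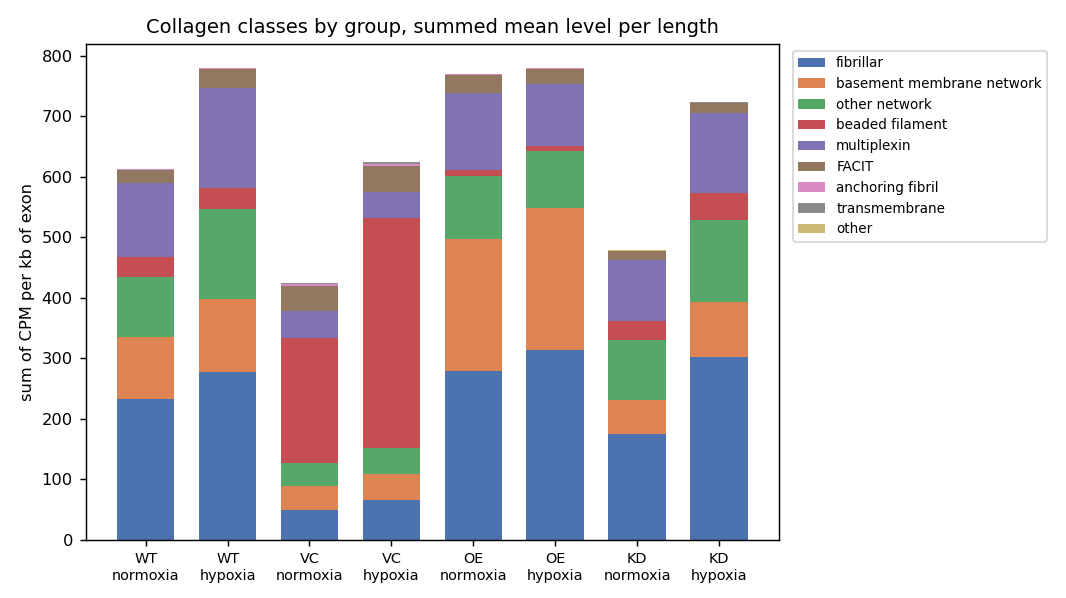
Stacked bars give the summed mean level of each collagen class (CPM per kb of exon, linear axis from 0) in the 8 groups of 3 libraries. The beaded filament part fills 48.6% of the VC normoxia bar and 1.23% of the OE normoxia bar, and the basement membrane part is largest in the OE bars.

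In normoxia 5 of the 6 type IV genes were higher in OE than in WT, and among all 39 tested collagen genes 10 were higher and 6 lower, with called meaning a Benjamini-Hochberg adjusted p under 0.01 in edgeR's quasi-likelihood test. Of all 24873 genes tested, 19.7% were called, 9.48% higher and 10.2% lower. The median log2 difference of the collagen genes was 0.05 and that of all genes 0, so the middle of the collagen genes did not shift. Their quartiles, -0.97 and 1.24, lay further apart than those of all genes, -0.41 and 0.41, and their summed CPM was higher in OE. These are bulk libraries, in which less RNA per cell and fewer cells with the RNA cannot be told apart.

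COL4A3 and COL4A4 make, with COL4A5, the type IV network of the kidney filter, the cochlea and the eye. COL4A3 was at 7.52, 8.85 and 9.03 CPM in WT normoxia and at 101, 101 and 101 CPM in OE normoxia. The OE libraries all lay far above those of WT, a log2 difference of 3.58 ± 0.12 (SE; edgeR, Benjamini-Hochberg adjusted p = 4.01e-20). In hypoxia COL4A3 was at 12.3, 8.47 and 8.84 CPM in WT and at 79.3, 99.9 and 106 CPM in OE, again with no overlap (3.27 ± 0.12, and 3.36 without replicate 1 of OE). The antisense RNA MFF-DT shares 6.82% of the exon bases of COL4A3 on the other strand.

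COL4A4, the partner that is read in the opposite direction, was at 24.7, 24.2 and 26.0 CPM in WT normoxia and at 216, 211 and 205 CPM in OE. This was a log2 difference of 3.08 ± 0.09 (edgeR, Benjamini-Hochberg adjusted p = 2.34e-21). The genes of this pair did not keep a fixed ratio. COL4A3 counts divided by COL4A4 counts were 0.304 to 0.365 in WT normoxia, 0.467 to 0.493 in OE, 0.193 to 0.214 in KD and 0.311 to 0.384 in VC. In hypoxia the ratio was 0.233 to 0.307 in WT, 0.296 to 0.349 in OE and 0.0929 to 0.128 in KD.

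COL4A1 and COL4A2, the chains of the type IV network found in nearly every basement membrane, rose less in OE, from a higher level. COL4A2 was at 815, 845 and 770.1 CPM in WT normoxia and at 1691, 1607 and 1552 CPM in OE, a log2 difference of 1.00 ± 0.12 (edgeR, Benjamini-Hochberg adjusted p = 1.9e-07). COL4A1 was at 786, 832 and 784 CPM in WT and at 1656, 1552 and 1426 CPM in OE, a log2 difference of 0.95 ± 0.09. Neither gene's OE libraries overlapped those of WT. In hypoxia COL4A2 was at 1084, 896 and 924 CPM in WT and at 1157, 1904 and 1666 CPM in OE. The lowest OE value is replicate 1, which lies just above the highest WT library, and the log2 difference was 0.70 ± 0.12 with it and 0.86 without it. When only the 6 libraries compared were fitted, it was 0.69 and no longer called (edgeR, Benjamini-Hochberg adjusted p = 0.0202). The ratio of COL4A1 to COL4A2 counts stayed between 0.851 and 1.25 in all 24 libraries, and the highest ratio was that of replicate 1 of OE hypoxia.

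COL4A6, found with COL4A5 in smooth muscle and skin basement membranes, was near the limit of counting. It was at 0.933, 1.12 and 1.15 CPM in WT normoxia and at 2.86, 2.59 and 2.65 CPM in OE, a log2 difference of 1.34 ± 0.38 (edgeR, Benjamini-Hochberg adjusted p = 0.00826). The libraries did not overlap, but the call was lost when any of the 6 was left out (edgeR, Benjamini-Hochberg adjusted p from 0.0237 to 0.0490), and its call in hypoxia was lost without any WT library or without replicate 3 of OE. COL4A5 was level across the lines, at 43.5 CPM ± 2.59 (SD, n = 3) in WT, 45.1 ± 2.82 in VC, 48.8 ± 1.11 in OE and 44.6 ± 3.67 in KD normoxia. It was not called in any comparison between lines.

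**Figure D2:**
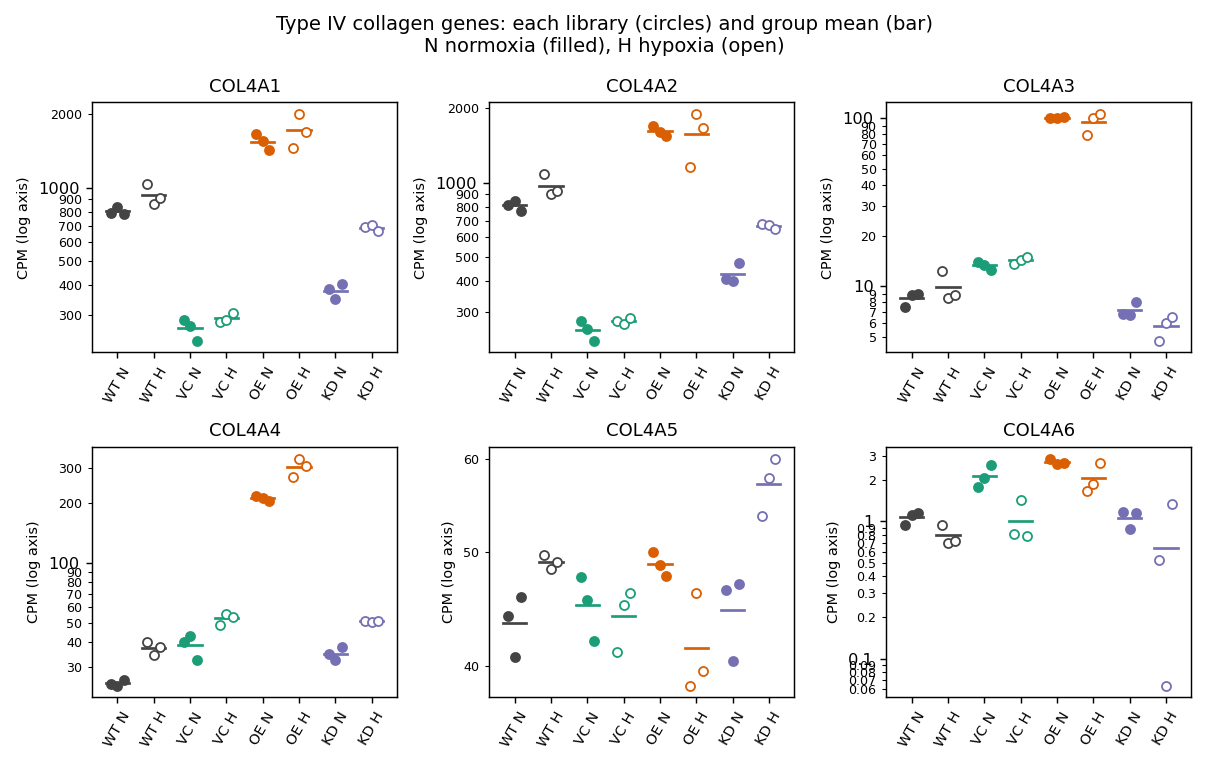
Each panel shows a type IV gene, with CPM on a log axis against the 8 groups (N normoxia, filled; H hypoxia, open); circles are libraries and bars are group means. OE libraries of COL4A3 sit between 79.3 and 106 CPM and all other libraries at 14.9 CPM or less, while the group means of COL4A5 lie between 41.4 and 57.1 CPM.

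Outside type IV, COL9A2, a FACIT chain best known from cartilage, was at 10.1, 11.5 and 9.82 CPM in WT normoxia and at 83.3, 80.7 and 83.7 CPM in OE. The log2 difference was 2.97 ± 0.15 (edgeR, Benjamini-Hochberg adjusted p = 4.02e-15), although its partner COL9A3 had 3 counts over WT normoxia and 2 over OE normoxia. COL1A1 was at 97.0, 104 and 96.8 CPM in WT and at 274, 263 and 213 CPM in OE (1.33 ± 0.16). Both genes separated the lines completely. COL6A6, a long type VI chain, had 186 counts over OE normoxia and 3 over WT normoxia, a ratio of 66.2 with a counting interval of 22.3 to 324. COL26A1 had 19 counts in OE and 0 in WT, and the call was lost by DESeq2 (Benjamini-Hochberg adjusted p = 0.0317) and without replicate 1 or 2 of WT. COL5A1 was called at 0.41 ± 0.12 but lost with any of the 6 libraries left out or with the replicate number as a block.

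The genes that were lower in OE came from several classes. COL13A1, a transmembrane collagen of cell adhesion sites, was at 5.27, 6.15 and 5.74 CPM in WT normoxia and at 0.124, 0.165 and 0.139 CPM in OE. In hypoxia it had 223 counts over the WT libraries and 0 over those of OE, at least 72.5-fold lower when 3 counts over the group are taken as the floor. COL10A1, the network collagen of hypertrophic cartilage, was at 9.60, 7.57 and 9.25 CPM in WT normoxia and at 0.249, 0.331 and 0.139 CPM in OE, a log2 difference of -5.11 ± 0.33 (edgeR, Benjamini-Hochberg adjusted p = 9.38e-13). Both genes were thus close to the limit of detection in OE. COL27A1, a fibrillar chain of cartilage, was at 28.5, 25.8 and 27.5 CPM in WT and at 5.47, 5.57 and 4.67 CPM in OE (-2.37 ± 0.14). COL6A1 was at 177, 188 and 185 CPM in WT and at 46.0, 48.9 and 54.4 CPM in OE (-1.88 ± 0.13). COL8A2, which joins COL8A1 in the type VIII network and is known from the corneal basement membrane, was at 39.1, 38.5 and 41.2 CPM in WT and at 13.4, 13.5 and 11.4 CPM in OE (-1.63 ± 0.12). None of these libraries overlapped between WT and OE. COL12A1, a FACIT chain on fibrils of tendon and other tissues, was the other lower gene (-1.03 ± 0.22).

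In hypoxia 9 collagen genes were higher and 11 lower in OE than in WT, 51.3% of those tested beside 26.6% of all genes (13.6% higher and 13.0% lower). The median log2 difference was 0.03 for the collagen genes and for all genes. The counts were again 9 and 11 without replicate 1 of OE. The higher and lower genes named above were called again except COL5A1 and COL26A1. COL20A1, a FACIT-type chain of little known function, was at 7.39, 6.37 and 7.90 CPM in WT and at 0.330, 0.993 and 0.668 CPM in OE, with a log2 difference of -3.38 ± 0.32 (edgeR, Benjamini-Hochberg adjusted p = 4.03e-10), and -3.11 without replicate 1 of OE. The libraries were clear of each other. COL18A1 was at 1431, 1345 and 1416 CPM in WT and at 539, 1136 and 893 CPM in OE. The spread within OE was wide, and the log2 difference of -0.71 ± 0.15 became -0.49 without replicate 1 and was not called with only the compared libraries fitted (edgeR, Benjamini-Hochberg adjusted p = 0.0536). COL8A1, COL5A2 and COL16A1 were also lower (-0.56, -0.45 and -0.96, and -0.51, -0.44 and -0.78 without replicate 1 of OE), but the call of COL16A1 was lost with only the compared libraries fitted (edgeR, Benjamini-Hochberg adjusted p = 0.0182). COL5A1, not called with all libraries, was higher by 0.36 and called without replicate 1 of OE. COL14A1, with 9 counts over OE hypoxia and 0 over WT hypoxia, was higher by at least 3.08-fold, a call that was lost without replicate 1 or 3 of OE or any library of WT.

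**Figure D3:**
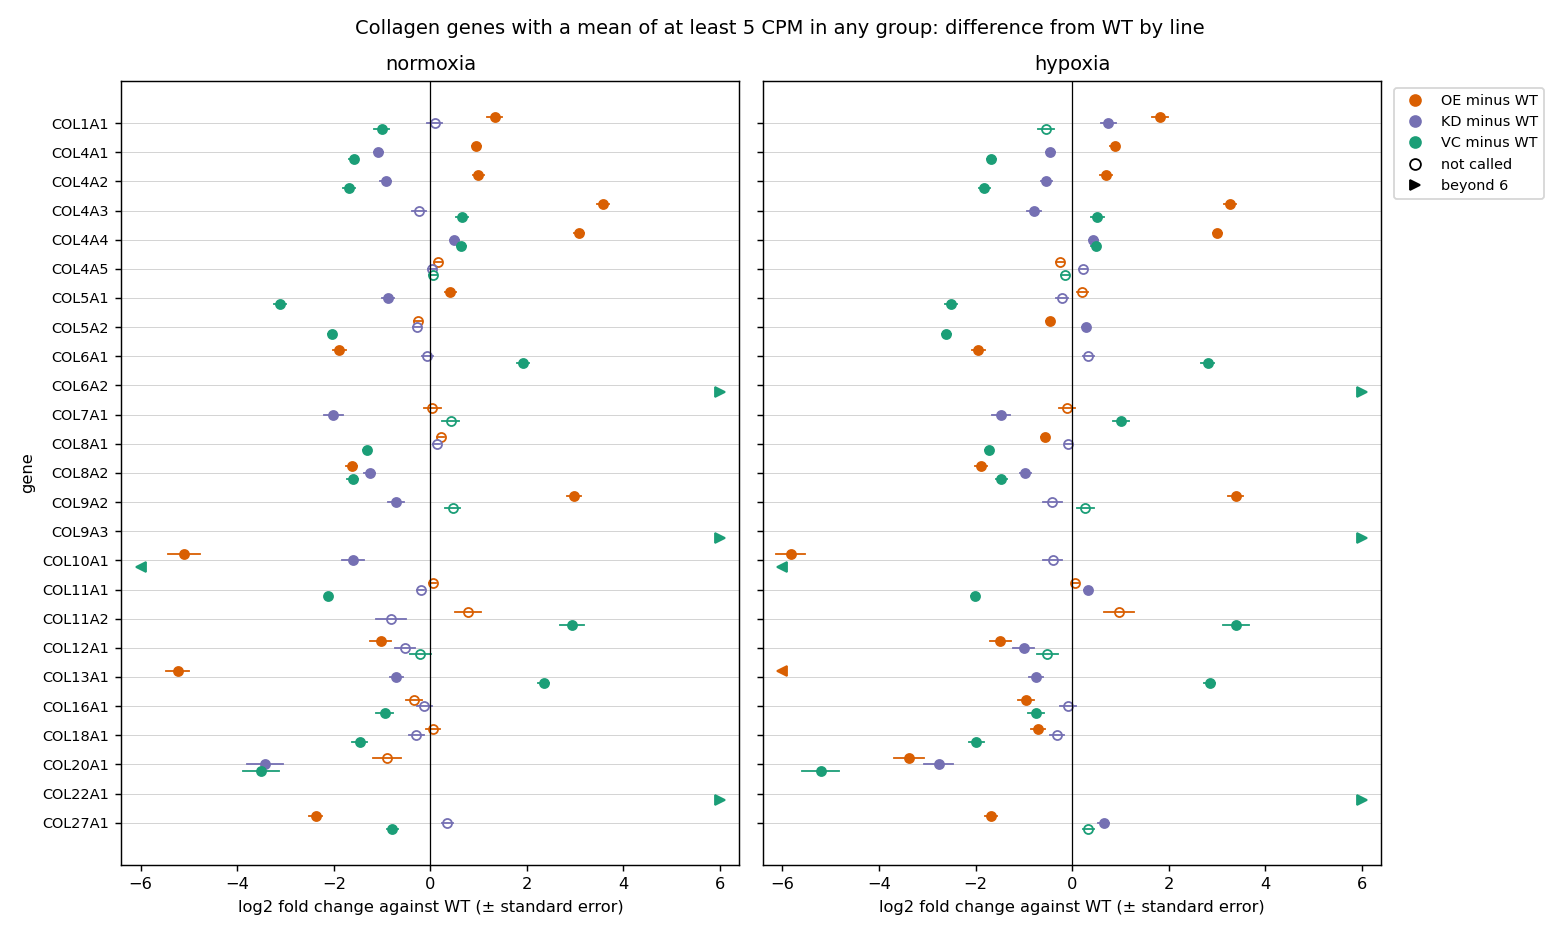
Points give the log2 difference from WT (horizontal axis, bars ± SE) of the 25 collagen genes with a mean of at least 5 CPM in any group, for OE, KD and VC in normoxia (left) and hypoxia (right); filled points were called, triangles lie beyond 6, and pairs of groups both under 1 CPM are not drawn. In normoxia COL4A3 and COL4A4 lie at 3.58 and 3.08 for OE, and COL5A1 lies at -3.12 for VC.

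The line with low EMP2 differed from WT in fewer collagen genes. In normoxia 1 was higher and 9 were lower in KD, 25.6% of the collagen genes beside 16.3% of all genes (6.61% higher and 9.71% lower), with a median log2 difference of -0.06 beside 0 for all genes. With the replicate number as a block, which the libraries of this comparison bear out, 11 were called and the added gene was COL5A2. COL4A2 was at 407, 400.2 and 475 CPM in KD normoxia, all under the 770.1 to 845 CPM of WT, a log2 difference of -0.92 ± 0.12 (edgeR, Benjamini-Hochberg adjusted p = 9.82e-07). COL4A1 was at 384, 351 and 404 CPM, a log2 difference of -1.08 ± 0.09. This common pair was thus lower in KD than in WT and higher in OE. Both genes were lower still in VC normoxia, with means of 266 CPM for COL4A1 and 253 CPM for COL4A2, and EMP2 was not called between VC and WT. COL4A3 was at 6.78, 6.69 and 8.06 CPM in KD normoxia, overlapping WT and not called, and COL4A4 was higher in KD at 35.1, 32.6 and 37.7 CPM (0.49 ± 0.09).

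COL7A1, the anchoring fibril that ties basement membranes to the stroma below, had the largest fall among genes over 5 CPM in WT. It was at 23.3, 18.2 and 17.0 CPM in WT normoxia and at 4.62, 6.12 and 3.62 CPM in KD, so its level fell by 2.01 ± 0.20 on the log2 scale (edgeR, Benjamini-Hochberg adjusted p = 3.04e-08). COL10A1 was at 2.71, 3.48 and 2.41 CPM in KD (-1.60 ± 0.22), and COL8A2 at 17.0, 16.3 and 16.4 CPM (-1.26 ± 0.11). All 3 genes were clear of their WT libraries. COL20A1, below 5 CPM in both lines, had 14 counts over KD normoxia and fell by 3.43 ± 0.37 on the log2 scale. COL5A1 (-0.88), COL13A1 (-0.71) and COL9A2 (-0.71) were the other lower genes, and the call of COL9A2 was lost without replicate 2 of WT or replicate 2 or 3 of KD.

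In hypoxia 6 collagen genes were higher and 8 lower in KD than in WT, 35.9% beside 18.2% of all genes (8.91% higher and 9.31% lower), with medians of 0 in both. Fibrillar chains made up 5 of the 6 higher genes. COL1A1 was at 114, 113 and 112 CPM in KD against 66.9, 64.3 and 69.7 CPM in WT (0.75 ± 0.16), with no overlap between the lines. COL27A1 (0.65 ± 0.11), COL11A1 (0.32 ± 0.07), COL5A2 (0.28 ± 0.08) and COL3A1, with 78 counts over KD hypoxia against 4 over WT hypoxia, were the others. The call of COL5A2 was lost without any of the 6 libraries. COL4A3 was at 4.73, 6.06 and 6.55 CPM in KD hypoxia and at 12.3, 8.47 and 8.84 CPM in WT, a log2 difference of -0.78 ± 0.15 (edgeR, Benjamini-Hochberg adjusted p = 0.000108). COL4A2 was at 682, 671 and 648 CPM, below the 896 to 1084 CPM of WT (-0.54 ± 0.12). The type IV genes were therefore still split, with COL4A1, COL4A2 and COL4A3 lower and COL4A4 higher (0.44 ± 0.09). COL20A1 (-2.76 ± 0.30), COL7A1 (-1.47 ± 0.19), COL12A1 (-1.01 ± 0.22), COL8A2 (-0.97 ± 0.11) and COL13A1 (-0.75 ± 0.14) were also lower. COL12A1 was at 751, 405 and 439 CPM in WT hypoxia, where replicate 1 stands far above the others, and its call was lost without replicate 3 of KD (edgeR, Benjamini-Hochberg adjusted p = 0.0102) and with only the compared libraries fitted (0.0460).

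The vector control differed from WT in more collagen genes than either EMP2 line. In normoxia 12 were higher and 14 lower in VC, 66.7% of the collagen genes beside 35.8% of all genes (19.8% higher, the rest lower). In hypoxia 12 were higher and 12 lower, 61.5% beside 39.9% (21.9% higher and 18.0% lower). The median log2 differences of the collagen genes were 0.39 and 0.35, beside 0.03 and 0 for all genes. EMP2 itself did not pass the test between VC and WT, with log2 differences of -0.10 and -0.27. The differences included genes that were nearly absent from every other line. The sum of the fibroblast and other mesenchymal markers, 119 to 124 CPM in VC normoxia against 540 to 553 CPM in WT normoxia, and that of the RPE markers moved with these differences, and their part in them was not tested. The members of these lists did not all move alike. In normoxia 2 of the 6 mesenchymal markers tested were higher in VC and 2 lower, and of the 9 RPE markers 1 was higher and 6 lower.

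COL6A2, a chain that type VI collagen needs for its basic unit, was at 457, 402 and 449 CPM in VC normoxia and at 699.9, 711 and 734 CPM in VC hypoxia. Over the other 18 libraries it never exceeded 7 counts, with 0, 0 and 7 counts in WT normoxia, and that highest trace was again in replicate 3. The log2 difference of VC from WT was 11.57 ± 0.32 in normoxia (edgeR, Benjamini-Hochberg adjusted p = 4.13e-17). COL6A1, on the same chromosome arm, was present in all lines and was at 705, 658 and 709 CPM in VC normoxia (1.91 ± 0.12) and at 1258, 1375 and 1448 CPM in VC hypoxia (2.81 ± 0.13). COL6A1 counts were 1.54 to 1.97 times those of COL6A2 in the VC libraries. COL6A3, the long chain that completes the unit, was far lower, at 1.21, 1.00 and 1.12 CPM in VC normoxia and 2.86, 3.46 and 5.10 CPM in VC hypoxia, both still above WT (2.47 ± 0.58 and 3.31 ± 0.51).

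COL9A3 was at 116, 106 and 101 CPM in VC normoxia, 5452 counts against 3 in WT normoxia, a ratio of 1857 with a counting interval of 635 to 9007. In hypoxia it was at least 1442-fold higher in VC, since WT had 0 counts. COL9A3 shares 3.20% of its exon bases with TCFL5 on the other strand. COL22A1, a FACIT-type chain of tissue junctions such as muscle and tendon, was at 9.19, 11.8 and 9.91 CPM in VC normoxia and had 0 counts in WT normoxia, at least 180.5-fold higher in VC. Like COL6A2, both of these genes thus separated VC from all other lines. COL11A2 was at 10.4, 8.97 and 10.6 CPM in VC and at 1.26, 1.17 and 1.51 CPM in WT (2.93 ± 0.24). COL13A1, low in OE, was high in VC at 29.7, 29.2 and 28.4 CPM (2.35 ± 0.11). COL4A3 and COL4A4 were also higher (0.65 ± 0.13 and 0.64 ± 0.09), as were COL3A1, COL6A6 and COL14A1 at low counts.

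The lower genes in VC held the major fibrillar and network chains of WT. COL5A1 was at 1036, 1059.9 and 935 CPM in WT normoxia and at 128, 122 and 98.7 CPM in VC, a log2 difference of -3.12 ± 0.13 (edgeR, Benjamini-Hochberg adjusted p = 1.21e-16). COL11A1 was at 1028, 1028 and 904 CPM in WT and at 246, 235 and 204 CPM in VC (-2.11 ± 0.08). COL5A2, the partner of COL5A1 in type V collagen, was at 147, 154 and 142 CPM in WT and at 36.2, 39.6 and 31.9 CPM in VC (-2.04 ± 0.09). The libraries of these 3 genes were wide apart. COL10A1 had 453 counts over WT normoxia and 0 over VC normoxia, at least 148-fold lower in VC, and 828 against 1 in hypoxia. COL4A1 and COL4A2 were lower by -1.59 ± 0.10 and -1.68 ± 0.12, with COL4A2 at 275, 254 and 229 CPM in VC. Among the others, COL8A1 (-1.32), COL18A1 (-1.47), COL8A2 (-1.61), COL1A1 (-1.01), COL16A1 (-0.95), COL27A1 (-0.79) and, at low counts, COL20A1 (-3.51) and COL28A1 (-2.31) were lower. In hypoxia the calls of COL3A1 and COL4A3 were lost without replicate 2 or 3 of WT, and that of COL28A1 by DESeq2 (Benjamini-Hochberg adjusted p = 0.0221), by limma and without any library but replicate 3 of WT.

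**Figure D4:**
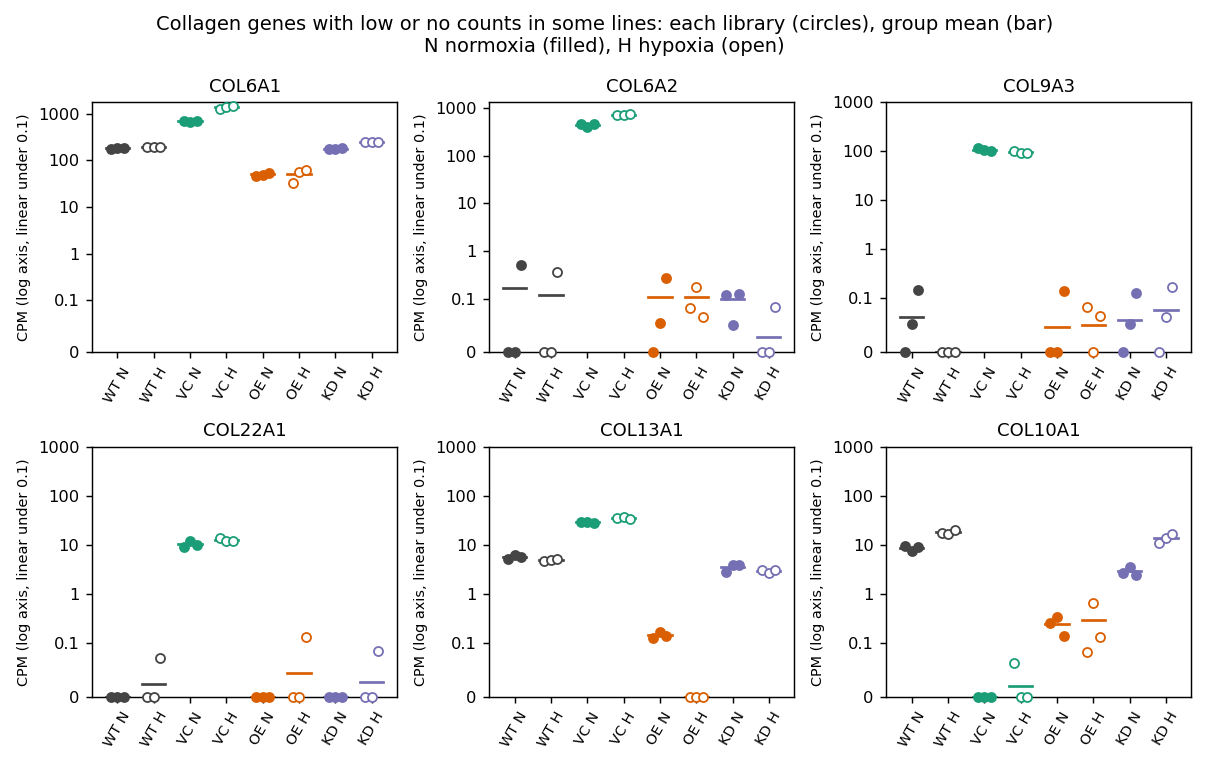
Panels show 6 collagen genes in every library, with CPM on an axis that is logarithmic above 0.1 and linear down to 0; circles are libraries, bars are group means, N is normoxia (filled) and H is hypoxia (open). COL6A2 lies between 402 and 734 CPM in the VC libraries and at 0.502 CPM or less in all others, while COL10A1 reaches 20.1 CPM in WT hypoxia and has 1 count in all VC libraries together.

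Because OE and VC were both made with a retrovirus, the comparison between them matches that step, and it shares its libraries with the comparisons above. In normoxia 15 collagen genes were higher and 10 lower in OE than in VC, 64.1% beside 33.5% of all genes (15.4% higher and 18.1% lower), with a median log2 difference of 0.60 beside 0.00. In hypoxia 14 were higher and 11 lower, beside 38.2% of all genes (17.9% higher and 20.3% lower), and 15 and 10 without replicate 1 of OE. Some calls were lost when certain single libraries were left out. These were COL6A6, COL10A1, COL12A1 and COL16A1 in normoxia, and COL6A6, COL8A2, COL10A1 and COL20A1 in hypoxia. COL10A1 was also not called by limma (Benjamini-Hochberg adjusted p = 0.151 in normoxia and 0.131 in hypoxia). The largest differences upward in normoxia were those of COL5A1 (3.53 ± 0.13), COL4A3 (2.92 ± 0.12), COL4A2 (2.68 ± 0.12) and COL4A1 (2.54 ± 0.10). COL4A2 at 1552 to 1691 CPM in OE and at 229 to 275 CPM in VC thus differed in the same direction as against WT, where the log2 difference was 1.00. COL4A4 (2.44 ± 0.09), COL9A2 (2.51 ± 0.14) and COL1A1 (2.34 ± 0.17) were higher against both. Downward, COL9A3 had 5452 counts over VC normoxia and 2 over OE normoxia, COL22A1 had 530 and 0, and COL13A1 had a log2 difference of -7.58 ± 0.20. COL6A1 differed by -3.80 ± 0.13 and COL27A1 by -1.59 ± 0.14, also lower against both. Other genes differed from WT and VC in opposite directions. COL10A1, lower in OE than in WT, was higher in OE than in VC in normoxia (12 counts against 0) and in hypoxia. In hypoxia COL5A2, COL8A1, COL18A1 and COL20A1 were also lower against WT and higher against VC. Without replicate 1 of OE hypoxia, COL5A2 and COL8A1 differed from VC by 2.17 and 1.22. COL6A1, COL8A2, COL12A1, COL13A1 and COL27A1 were lower against both in hypoxia, and COL16A1 was not called against VC. COL8A2, lower in OE than in WT, was not called between OE and VC in normoxia, where its libraries overlapped at 11.4 to 13.5 CPM in OE and 10.2 to 14.5 CPM in VC. Only COL4A6 of the higher type IV genes was not called against VC, where it was at 1.79, 2.06 and 2.58 CPM.

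Of the collagen genes that changed with hypoxia, most rose. KD had the most calls, 13 genes that were all higher, or 33.3% of the collagen genes beside 19.1% of all genes (10.4% higher and 8.72% lower). WT had 5 higher and 1 lower (15.4% beside 21.1%, of which 9.86% higher and 11.2% lower), VC 8 higher and 3 lower (28.2% beside 21.0%, of which 10.3% higher and 10.7% lower), and OE 2 higher and 2 lower (10.3% beside 13.9%, of which 6.47% higher and 7.40% lower). Without replicate 1 of OE hypoxia, 5 were higher and 1 lower in OE. The median log2 change of the collagen genes was 0.12 in WT, 0.23 in VC, -0.07 in OE and 0.41 in KD, with medians of all genes between -0.01 and 0.00. At an adjusted p under 0.05 WT would have 10 calls and OE 8. With only the libraries of OE fitted, 1 collagen gene was called for hypoxia in OE. Of the 19166 genes tested in that fit, 443 were higher and 319 lower, beside 3449 called in OE with all libraries fitted.

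COL4A4 was the only collagen gene that rose in all 4 lines when every library was fitted, and COL5A1 joined it without replicate 1 of OE hypoxia. It went from 24.7, 24.2 and 26.0 CPM to 40.1, 34.6 and 38.0 CPM in WT, with a log2 change of 0.59 ± 0.09 (edgeR, Benjamini-Hochberg adjusted p = 8.49e-06). The changes were 0.44 ± 0.09 in VC, 0.52 ± 0.08 in OE (0.60 without replicate 1 of hypoxia) and 0.54 ± 0.09 in KD. Libraries of the 2 oxygen levels did not overlap in any line. COL4A3, its partner, was not called in any line, with changes of 0.23 in WT, 0.10 in VC, -0.08 in OE and -0.32 in KD. COL4A2 was called in KD alone, from 407, 400.2 and 475 CPM to 682, 671 and 648 CPM (0.64 ± 0.12), and COL4A1 likewise (0.85 ± 0.09), although without replicate 1 of hypoxia COL4A1 was also called in OE (0.27).

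COL5A1 rose in WT (0.44 ± 0.12, lost without replicate 3 of normoxia or replicate 1 or 3 of hypoxia), VC (1.05 ± 0.12) and KD (1.11 ± 0.12). In KD it went from 531, 531 and 586 CPM to 1191, 1249 and 1119 CPM, so that the difference from WT called in normoxia was not called in hypoxia. In OE it went from 1439, 1330.5 and 1256 CPM to 1195, 1941 and 1629.7 CPM, and the libraries overlapped (0.24, not called, but 0.42 and called without replicate 1 of hypoxia). COL27A1 rose in VC from 16.7, 13.8 and 17.2 CPM to 38.2, 40.8 and 45.3 CPM (1.39 ± 0.12; edgeR, Benjamini-Hochberg adjusted p = 1.81e-10). It also rose in OE, from 5.47, 5.57 and 4.67 CPM to 7.10, 10.5 and 12.8 CPM (0.96 ± 0.15, and 1.15 without replicate 1 of hypoxia, but not called with only the 6 libraries of OE fitted), and in KD (0.57 ± 0.11). In WT it changed by 0.27 and was not called.

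COL10A1 rose in WT from 9.60, 7.57 and 9.25 CPM to 17.9, 17.0 and 20.1 CPM (1.06 ± 0.19) and in KD from 2.71, 3.48 and 2.41 CPM to a range of 10.9 to 16.7 CPM (2.26 ± 0.22; edgeR, Benjamini-Hochberg adjusted p = 5.04e-09). Neither line's libraries overlapped. COL20A1 rose in WT from 3.02, 3.76 and 2.15 CPM to 7.39, 6.37 and 7.90 CPM (1.26 ± 0.27) and in KD (1.93 ± 0.41). In OE it fell by 1.21 ± 0.34 on the log2 scale, but without replicate 1 of hypoxia that change was -0.92 and was not called (edgeR, Benjamini-Hochberg adjusted p = 0.0449). The call was also lost without any normoxia library of OE, without replicate 3 of hypoxia, with no filter on low counts, with only the OE libraries fitted (edgeR, Benjamini-Hochberg adjusted p = 0.0972) and by DESeq2 (0.0118). COL15A1, a multiplexin of vascular basement membranes, was the other gene called lower in OE, with 43 counts in normoxia and 5 in hypoxia, and its call was lost without any normoxia library or replicate 3 of hypoxia. COL8A1 rose in WT from 857, 808 and 793 CPM to 1289, 1191 and 1299 CPM (0.62 ± 0.07) and in KD (0.41 ± 0.07).

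COL9A2 fell in WT and VC. In WT it was at 10.1, 11.5 and 9.82 CPM in normoxia and at 5.24, 5.73 and 6.31 CPM in hypoxia (-0.87 ± 0.17), and in VC at 15.2, 15.6 and 12.7 CPM and at 8.33, 5.45 and 7.15 CPM (-1.06 ± 0.16; edgeR, Benjamini-Hochberg adjusted p = 9.44e-06). In both lines every hypoxia library was below every normoxia library. In OE and KD it was not called (-0.46 and -0.57). In VC the type VI chains rose, COL6A1 by 0.98 ± 0.12, COL6A2 by 0.71 ± 0.15 and COL6A3 by 1.77 ± 0.44, although COL6A2 was not called by DESeq2 (Benjamini-Hochberg adjusted p = 0.740) and COL6A3 was lost without any normoxia library or replicate 3 of hypoxia. COL7A1 rose in VC from 30.5, 21.2 and 26.9 CPM to 40.8, 42.4 and 49.6 CPM (0.76 ± 0.16) and COL11A1 by 0.26 ± 0.07, which was lost without replicate 3 of normoxia. COL5A2 (-0.45 ± 0.09) and COL3A1 (-1.92 ± 0.45) fell in VC, COL3A1 not without replicate 3 of normoxia or replicate 1 of hypoxia. In KD, COL11A1 (0.68 ± 0.07), COL5A2 (0.67 ± 0.08), COL6A1 (0.49 ± 0.12), COL4A5 (0.36 ± 0.08) and COL3A1 (1.58 ± 0.45) rose as well, but COL3A1 was lost without any of the 6 libraries, COL6A1 without any of 4 and COL4A5 without replicate 2 of normoxia.

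**Figure D5:**
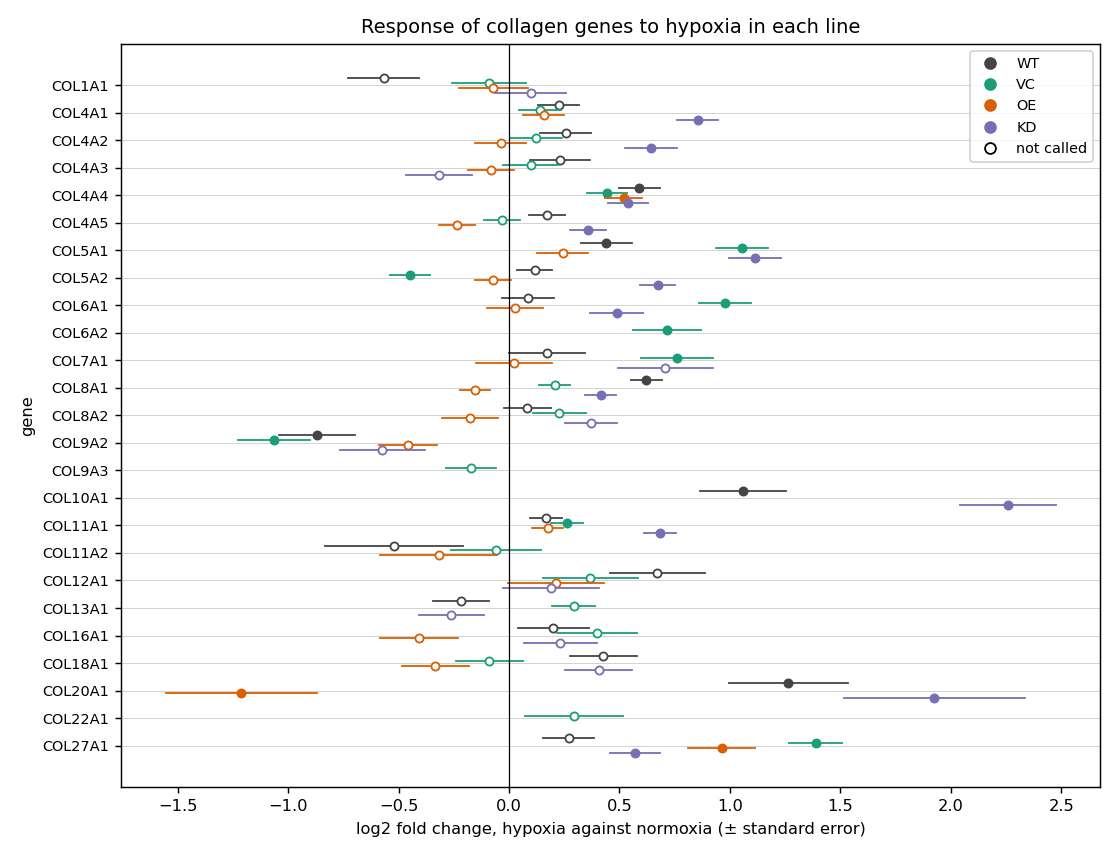
Points give the log2 change from normoxia to hypoxia (bars ± SE) in each line for the same 25 genes, drawn where a group of the line reaches 1 CPM; filled points were called. COL4A4 is filled at 0.44 to 0.59 in all 4 lines, COL10A1 reaches 2.26 in KD, and most OE points are open.

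The change with hypoxia was also compared between lines by the interaction term of the same model. Against WT, 2 collagen genes responded less in OE (5.13% beside 6.18% of all genes, 3.33% more and 2.85% less). In KD 3 responded more (7.69% beside 0.985%, 0.675% more and 0.310% less). In VC 2 responded more and 2 less (10.3% beside 8.02%, 4.49% more and 3.53% less). Against VC, 2 responded less in OE (5.13% beside 5.13%, 2.42% more and 2.72% less). COL8A1 and COL20A1 were the genes for OE against WT, with differences of -0.77 ± 0.10 and -2.48 ± 0.43. The changes of COL10A1 and COL5A1 that were larger in KD than in WT did not pass this test. The KD calls were COL4A1 (0.63 ± 0.13), COL5A2 (0.56 ± 0.11) and COL11A1 (0.52 ± 0.10), and between 0 and 3 genes were called when each of the 12 libraries was left out in turn, with 0 or 1 in 8 of these fits. Without replicate 1 of OE hypoxia, 6 genes were called for OE against WT (3 responded more and 3 less) and 5 for OE against VC (2 more and 3 less), while COL8A1 and COL20A1 differed from WT by -0.70 and -2.18.

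The hydroxylases of collagen chains that were called in hypoxia changed in a single direction. Of 12 prolyl and lysyl hydroxylases and their partners, 7 rose in WT, 7 in VC, 5 in OE and 8 in KD, with median log2 changes of 0.48, 0.65, 0.22 and 0.55. Of all genes 9.86% rose in WT, 10.3% in VC, 6.47% in OE and 10.4% in KD, and without replicate 1 of OE hypoxia 6 of the 12 rose in OE. These shares include genes at low counts. Of the 16634 genes kept by a stricter filter (filterByExpr), 2804 rose in WT, 2800 in VC, 1967 in OE and 2815 in KD. P4HA1, a catalytic subunit of prolyl 4-hydroxylase, went from 165 CPM ± 4.81 (SD, n = 3) to 774 ± 23.0 in WT, a log2 change of 2.23 (edgeR, Benjamini-Hochberg adjusted p = 4.8e-21), and in OE from 209 ± 8.05 to 532 ± 34.1 (1.35). P4HA2 and the lysyl hydroxylase PLOD2 rose by 1.61 and 1.49 in WT. All 3 responded less in OE than in WT (interactions of -0.88, -0.70 and -0.50, and -0.94, -0.66 and -0.55 without that library). Of the 10 genes for folding, glycosylation and export, 3 rose and 2 fell in WT (median log2 change of 0.10), beside 9.86% and 11.2% of all genes. In VC 6 rose, in OE 3 (5 without replicate 1 of hypoxia) and in KD 4, and 0 fell in these lines. Among them SERPINH1, the collagen chaperone HSP47, rose by 1.13 in WT, 1.34 in VC, 1.23 in OE and 1.37 in KD, and it was not called as different between lines in its response. Of the 5 lysyl oxidases, 2 rose in WT, 3 rose and 1 fell in VC, 2 rose in KD and 0 were called in OE, beside the same shares of all genes. LOX, which cross-links fibrillar collagen, was at 887 CPM ± 52.2 in WT normoxia and at 4028 ± 189 in WT hypoxia, and in OE, where it was not called, at 1274 ± 10.9 and 1509 ± 197, an interaction of -1.94 (edgeR, Benjamini-Hochberg adjusted p = 2.8e-13). Without replicate 1 of OE hypoxia, LOX was called in OE with a log2 change of 0.34, and the interaction was -1.86.

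Of the 8 propeptide proteinases and their enhancers, 2 were higher and 5 lower in OE normoxia than in WT, 2 and 5 in VC, and 5 were lower in KD. Of all genes 9.48% were higher and 10.2% lower in OE, 19.8% higher and the rest of the 35.8% lower in VC, and 6.61% higher and 9.71% lower in KD. ADAMTS2, which removes the N-terminal propeptide of fibrillar procollagens, was at 69.7 CPM ± 0.781 in WT normoxia, 11.5 ± 1.07 in OE and 0.741 ± 0.253 in VC, and it had 2 counts over KD normoxia. LOXL4 was at 51.8 CPM ± 0.933 in VC normoxia and at 0.242 ± 0.103 in WT normoxia, and it stayed at or under 1.16 CPM on average outside VC. Of the 10 collagen receptors, 8 could be tested, and 1 was higher and 3 lower in OE normoxia, 3 and 3 in KD and 4 and 1 in VC. In hypoxia 1 was higher and 5 lower in OE, with or without its replicate 1, 3 and 1 in KD and 4 and 3 in VC, beside 26.6%, 18.2% and 39.9% of all genes called. ITGA11, a collagen-binding integrin subunit, was at 37.6 CPM ± 1.68 in KD and at 2.95 ± 0.947 in WT normoxia (log2 difference of 3.63). ITGA10, another such subunit, was lower in OE (-4.31), and the receptor kinase DDR2 was lower in OE (-0.35) and VC (-1.34) and higher in KD (0.54).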

How the data were processed

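Ribosomal RNA was depleted, and single reads of 50 bases were aligned by the authors with STAR to GRCh38 (an alignment report header names Ensembl 98; the strand setting is not given in the sources used here). The deposited files hold counts per gene and normalized signal values; 100% of the 530927 non-zero normalized values, recovered as whole reads within 0.01, equalled the deposited counts once the authors' scaling was undone. Counts of all 24 libraries, as 8 groups, were fitted with edgeR 4.0.16 (R 4.3.3; TMM, robust quasi-likelihood) over the 24873 genes with at least 10 counts, with Benjamini-Hochberg adjustment over all of them and calls at 0.01. CPM use TMM-scaled library sizes, intervals on ratios are exact 95% and cover counting error only, and a 0 allows up to 3 counts. Library pairs of a group differed by 2.16 to 40.4 times sampling variance, so none was merged. Named genes were COL4A2, COL4A3, COL6A2, the type IV pairs and, per comparison, up to 4 called genes per direction with the largest change, at least 5 CPM and no overlap. Genes outside that rule were named after their values were seen. The genes and lists were chosen with earlier results of these data known. Replicate numbers were taken to pair libraries where each same-numbered correlation of deviations exceeded 0.1 (r = 0.295 to 0.409 for KD against WT in normoxia, 0.119 to 0.480 in hypoxia, 0.136 to 0.310 for OE against VC in normoxia, and 0.156 to 0.420 for hypoxia in VC). DESeq2 1.42.0, limma 3.58.1 on log2 of the deposited normalized signal plus 1, RLE scaling, other filters and each library left out were alternatives. The edgeR script was tested on simulated data.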

Additional observations from a re-analysis of the deposited data

Results flagged for a closer look

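The change with hypoxia differed between lines in 11 gene results, each by the interaction term of edgeR's quasi-likelihood model at a Benjamini-Hochberg adjusted p under 0.01, as a difference of log2 changes. For OE minus WT these were COL8A1 at -0.77 and COL20A1 at -2.48. COL8A1 rose in WT, with all 3 hypoxia libraries above all 3 normoxia libraries, and in OE it differed by -0.15 and was not called. For KD minus WT they were COL4A1 at 0.63, COL5A2 at 0.56 and COL11A1 at 0.52, where KD rose by more than WT.

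For VC minus WT they were COL5A2 at -0.56, COL6A1 at 0.89, COL8A1 at -0.41 and COL27A1 at 1.12. The COL8A1 call was lost in 8 of the 12 fits that left out a library (edgeR, Benjamini-Hochberg adjusted p from 0.0104 to 0.0179). COL5A2 fell in VC and changed by 0.12 in WT, which was not called. For OE minus VC they were COL5A1 at -0.81 and COL6A1 at -0.95, where VC rose and OE was not called. Without replicate 1 of OE hypoxia these differences were -0.66 and -0.75, and COL5A1 and COL6A1 were called in OE with log2 changes of 0.42 and 0.25. These comparisons share the WT, OE and VC libraries, so they are not independent of each other.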

How the results depend on the processing

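Of 205 calls (gene by comparison), 166 were called under every alternative and 0 turned direction. Calls lost were 0 with RLE scaling and with filterByExpr, 2 with no filter, 1 with the replicate block, 13 of 204 with only the compared libraries fitted, 5 by DESeq2, 8 by limma and 32 when each library was left out in turn. The causes were not tested. For OE against WT in normoxia 13 to 16 genes were called with a library left out, and 18 to 22 in hypoxia. For KD against WT these ranges were 9 to 10 and 12 to 14, for VC against WT 26 to 27 and 21 to 24, and for OE against VC 22 to 24 and 22 to 25. For hypoxia they were 5 to 7 in WT, 8 to 11 in VC, 2 to 6 in OE and 11 to 12 in KD. For the interactions they were 2 to 6 (OE minus WT), 0 to 3 (KD minus WT), 3 to 4 (VC minus WT) and 2 to 5 (OE minus VC). Leaving out any normoxia library of OE left 2 calls for hypoxia in OE.

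At an adjusted p under 0.05, calls were 10 for hypoxia in WT, 8 in OE, and 6 each for the interactions of OE minus WT, KD minus WT and OE minus VC. With no filter they were 10 for hypoxia in WT and 6, 8, 8 and 4 for the interactions of OE minus WT, KD minus WT, VC minus WT and OE minus VC. With only the compared libraries fitted they were 12 for hypoxia in WT, 1 in OE, and 8, 7 and 0 for KD minus WT, VC minus WT and OE minus VC. For OE minus WT, filterByExpr and DESeq2 gave 5 and limma 4; for KD minus WT DESeq2 gave 6; limma gave 8 for VC minus WT and 5 for OE minus VC.

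The replicate block moved no count by over 1.5 times. It gave 11 calls instead of 10 for KD against WT in normoxia. The library descriptions give the replicate number as a set number used in every group. In comparisons under the cut used for pairing, the block exchanged COL5A1 for COL5A2 for OE against WT in normoxia (16 calls, r = -0.065 to 0.295). It also added COL17A1 for OE against VC in hypoxia (26 calls). A shared effect of the set in these comparisons was not excluded. Depth limits genes under about 1 CPM, where 3 counts over a group are the floor. The shares of all genes called also depend on the filter on low counts. For VC against WT in normoxia, filterByExpr left 16634 genes, of which 4789 were higher and 4173 lower.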
